A study of Mus musculus with 6 samples.

Results

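The response of mature miRNAs to low oxygen alone was read in mProx24, a cell line of proximal tubule origin from C57B6 mice, as the array titled Hypoxia against the array titled Control. These are 2 of the 6 arrays of the study, 1 for each condition, and the comparison covers 1247 mouse miRNAs. Hypoxia cells were kept at 1% oxygen for 12 h and are labelled "1% NG PBS". Control cells stayed at 20% oxygen and are labelled "20% NG PBS". Both cultures grew in DMEM with 10% fetal calf serum, and neither received palmitate, albumin or rapamycin. The other 4 arrays held high glucose and palmitate cells at 20% oxygen, and the 3 stimuli together without and with rapamycin at 1% oxygen. The label NG is not explained, and the labels do not give the oxygen level during the 9 h in which other cultures received palmitate.

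Cells sense oxygen through prolyl hydroxylases, which mark hypoxia-inducible factor for destruction while oxygen is present. When oxygen is scarce the factor persists and switches on genes for glycolysis, red cell production and vessel growth, and in many cell types it also transcribes the host gene of miR-210. The proximal tubule works close to its oxygen limit, since it reabsorbs most of the filtered salt and burns fuel almost entirely in mitochondria. miR-210 is known for repressing ISCU and other transcripts of mitochondrial iron-sulphur assembly and respiration.

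The mature sequences that the results turn on are shown because they separate what each probe can read. They are RefSeq sequences of GRCm38.p6, written 5′ to 3′, with the seed, bases 2 to 8, in capitals. Both arms of Mir210, on the minus strand of chromosome 7 within a hairpin at 141221384 to 141221493, come first. The 3p arm is at 141221407 to 141221428 and the 5p arm at 141221445 to 141221466. Then come miR-322-5p and the 3 detected miRNAs that share its seed. A pair follows that also share a seed but had differences of opposite sign under the scaling reported here.
miR-210-3p: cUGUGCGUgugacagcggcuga
miR-210-5p: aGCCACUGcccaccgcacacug
miR-322-5p: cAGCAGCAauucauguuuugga
miR-15a-5p: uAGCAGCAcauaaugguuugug
miR-15b-5p: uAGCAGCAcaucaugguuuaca
miR-16-5p: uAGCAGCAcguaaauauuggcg
miR-301a-3p: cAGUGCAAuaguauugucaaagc
miR-130a-3p: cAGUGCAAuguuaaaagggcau

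The probes that gave the clearest differences are also printed, as the deposited files hold them. The probes of miR-210-3p are complementary to bases 7 to 22 and 8 to 22 of the mature sequence, and the brighter probe of miR-210-5p to bases 10 to 22. None of these reaches the whole seed.
miR-210-3p, probe A_54_P1443: tcagccgctgtcacac
miR-210-3p, probe A_54_P1444: tcagccgctgtcaca
miR-210-5p, probe A_54_P00005067: cagtgtgcggtgg
miR-709, probe A_54_P2099: tcctcctgcctc
miR-709, probe A_54_P2098: tcctcctgcct

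Signals below are mean spot intensities of the brightest probe of each miRNA, scaled so that the 6 arrays have the same 75th percentile across the 281 probes detected on each array. A miRNA counted as detected where at least 0.5 of the spots of a probe were well above background. By that rule 172 miRNAs were detected in hypoxia and 164 in control, and 162 to 193 on the other 4 arrays. Well above background were 12.0% of miRNA spots in hypoxia and 11.5% in control. The lowest detected probe signal was 22.2 in hypoxia and 22.7 in control. No spot was saturated. All arrays lay on 1 slide, with the 1% oxygen arrays in its second row and the 20% oxygen arrays in its first, so slide row and oxygen cannot be told apart. Markers of the labelled cell type were partly absent: 3 of 7 kidney tubule miRNAs were detected on both arrays (miR-30a-5p and both miR-10 miRNAs, miR-10a-5p and miR-10b-5p), whereas miR-204-5p, miR-215-5p, miR-194-5p and miR-192-5p were not. None of 5 miR-200 family markers of epithelium was detected, at a summed signal of 4.15 in hypoxia and 5.03 in control. Of the 18 markers of other tissues and of epithelium on the array, 1 was detected on each array, the muscle miRNA miR-206-3p, at 102 in hypoxia and 108 in control.

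miR-210-3p separated the oxygen levels. The signal was 260 in hypoxia, 219 with the triple stimuli and 206 with rapamycin added, against 24.1 in high glucose, 21.2 in palmitate and 24.7 in control. The 3 arrays at 1% oxygen were high and the 3 at 20% oxygen were low, with nothing between. In control it did not meet the detection rule, although its mean of 24.7 lay above the lowest detected signal there, 22.7. The ratio of the measured signals, hypoxia over control, was 10.5-fold for miR-210-3p (log2 3.40, spot SE 0.11). It is not a minimum, since the control value is an uncertain signal near background. With no replicate array, the spot SE reflects variation among spots of the same array only, and no p-value can be given for any difference between these 2 arrays.

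Both probes of miR-210-3p gave the difference separately. Probe A_54_P1443 had 20 of 20 spots well above background in hypoxia, from 234 to 309, and 8 of 20 in control, from 9.38 to 36.5. Probe A_54_P1444 averaged 205 in hypoxia, from 182 to 223, and 17.96 in control, with a highest spot of 32.4. No hypoxia spot of either probe overlapped a control spot. The scanner software's own sum over the probes of miR-210-3p was 130 ± 9.49 (software error) in hypoxia and 10.5 ± 1.99 in control, and the software called it detected on all 6 arrays. In the authors' deposited table of processed values it stood at 5.73 in hypoxia and 0.4996 in control, a ratio of 11.5.

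**Figure D1:**
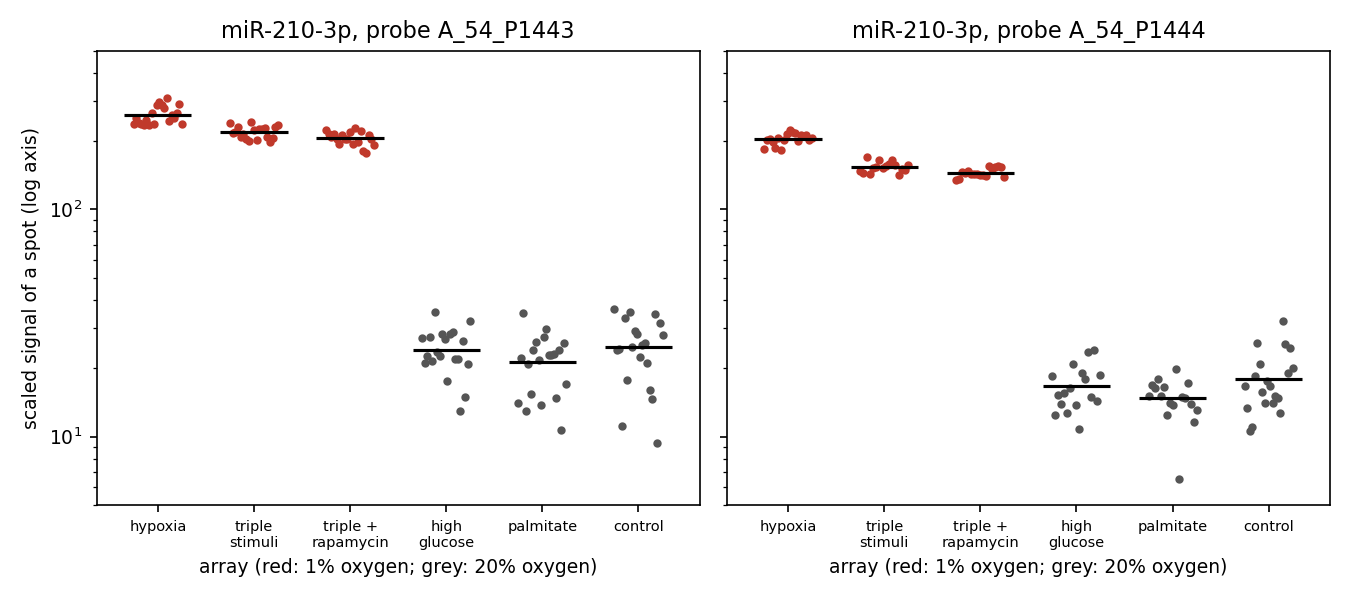
Scaled signal of each used spot (log axis) of the 2 probes of miR-210-3p on the 6 arrays, with horizontal lines at the array means. The 1% oxygen arrays (red) have no spot in the range of the 20% oxygen arrays (grey), where the control mean was 24.7 for A_54_P1443 and 17.96 for A_54_P1444.

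The other arm of the hairpin, miR-210-5p, stayed under the detection rule on every array, and 1 of its 2 probes followed the same split. The brighter probe averaged 16.8 in hypoxia, 10.2 with the triple stimuli and 8.31 with rapamycin added, against 2.14 in high glucose, -0.81 in palmitate and 0.22 in control. The lowest hypoxia spot was 9.45 and the highest control spot 6.19, so the spots of these arrays did not overlap. The second, shorter probe of miR-210-5p did not split by oxygen. It averaged 3.30 in hypoxia, 2.66 with the triple stimuli and -1.96 with rapamycin added, against -1.18 in high glucose, -2.25 in palmitate and -0.55 in control, and its hypoxia and control spots overlapped. The software's sum was 5.63 ± 1.89 in hypoxia and -0.08 ± 1.82 in control, and the software called miR-210-5p detected in hypoxia alone among the 6 arrays. Since both values lie under the lowest detected signal, no fold is given.

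Apart from miR-210-3p the profiles were close to each other. Across the 162 miRNAs detected on both arrays, a call needed a difference of 1.5-fold or more that also exceeded 2 spot SE. None was called higher and 3 were called lower, 1.85% of those compared: miR-709, miR-5107-5p and miR-714. The split of calls moved with the scaling. It was 2 higher (miR-3102-5p and miR-322-5p) and 1 lower (miR-714) with no scaling, and 1 higher (miR-3102-5p) and 1 lower (miR-714) with scaling to the spike-in probes. Log2 differences, hypoxia minus control, ran from -0.80 to 0.45 with a median of -0.11. Of the 162, 40 lay above 0 and 122 below it. That split also followed the scaling, with 111 above and 51 below with no scaling, and 76 above and 86 below when each array was centred on its median difference from the 6-array mean.

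The spread of these differences lay within that seen between arrays of the same oxygen level. The robust SD was 0.15 for hypoxia minus control, 0.17 for high glucose minus control, 0.12 for palmitate minus control and 0.25 for palmitate minus high glucose. Within 0.25 of 0 lay 127 of 162 differences, 78.4%. The median spot SE was 0.05, and 19 miRNAs were higher and 80 lower by more than 2 spot SE without regard to size. The spot SE was smaller than the spread of differences between arrays, which it does not include. Levels on the 2 arrays had a Pearson correlation of 0.996 across miRNAs, which share probes, scaling and slide. Between difference and level r was 0.02 (n = 162), and between difference and GC content -0.09 over the 133 miRNAs with a RefSeq sequence. The median difference was nevertheless lower at higher GC: -0.02 in the lowest of 3 bins of GC content, -0.11 in the middle and -0.16 in the highest, a step about as large as the robust SD, while GC-rich miR-5126, miR-2861 and miR-3102-5p were among the highest differences.

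**Figure D2:**
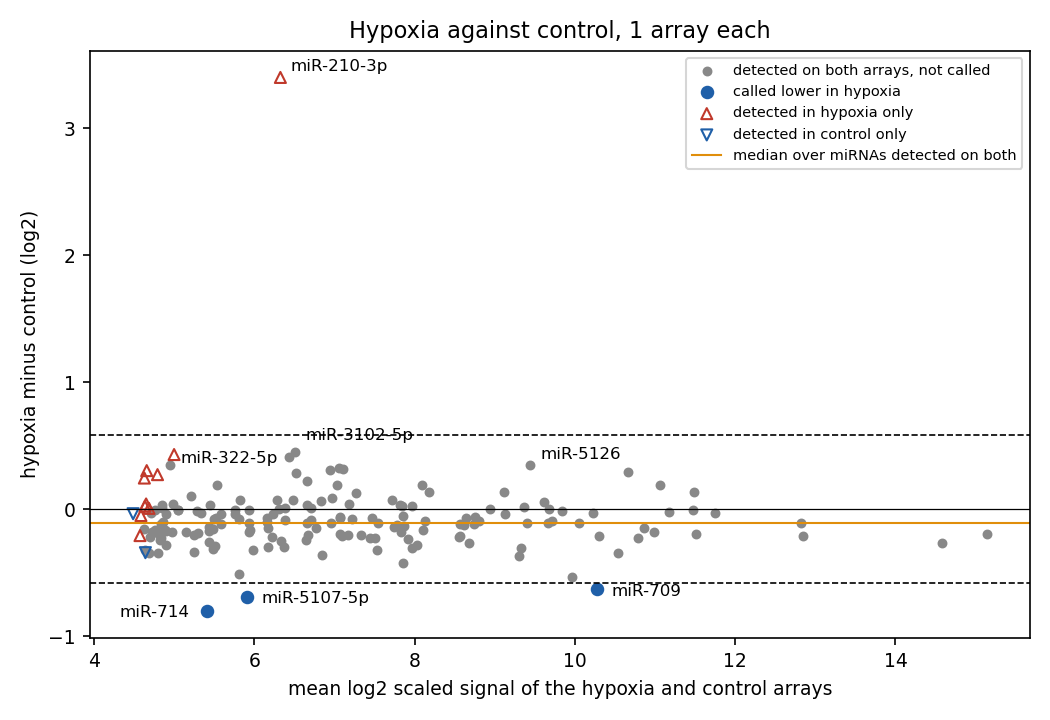
Hypoxia minus control (log2) against the mean log2 scaled signal of the arrays, 1 point for each miRNA detected on at least 1 of them. Dashed lines mark 1.5-fold. miR-210-3p (triangle, the ratio of the measured signals at log2 3.40) stands alone, and the 3 called miRNAs lie below the lower line.

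The brightest of the called miRNAs was miR-709, a mouse miRNA described in the nucleus, where it binds the primary transcript of miR-15a and miR-16. Its signal was 993 in hypoxia, 1475 with the triple stimuli and 1494 with rapamycin added, against 1672 in high glucose, 1530 in palmitate and 1538 in control. The hypoxia array was lowest of the 6, and the other 5 lay close together. The log2 difference of miR-709 was -0.63 (spot SE 0.01). Its second probe averaged 185 in hypoxia and 288 in control, a log2 difference of -0.64, and no hypoxia spot of either probe overlapped a control spot. miR-15a-5p and miR-16-5p were at 74.4 and 799 in hypoxia and at 76.5 and 770 in control, differences of -0.04 and 0.05.

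miR-5107-5p had the same shape over the arrays. It was at 47.2 in hypoxia, 76.2 with the triple stimuli and 67.9 with rapamycin added, against 75.8 in high glucose, 69.6 in palmitate and 76.1 in control. Again the hypoxia array was the low one, by log2 -0.69 (spot SE 0.07) against control. Hypoxia spots of its brighter probe ran from 30.3 to 60.6 and control spots from 59.7 to 88.9, so they met at the edge only. Its other probe was below the detection rule on both arrays, at 15.6 in hypoxia and 20.3 in control.

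miR-714 was the dimmest of the called miRNAs, near the limit of detection. Its signal was 32.3 in hypoxia, 51.5 with the triple stimuli and 34.4 with rapamycin added, against 49.1 in high glucose, 51.6 in palmitate and 56.3 in control. The hypoxia and rapamycin arrays were low and the other 4 higher. The difference from control was -0.80 (spot SE 0.17), resting on probes with 10 spots each, and the spots of the arrays overlapped. A second probe of miR-714 averaged 18.9 in hypoxia and 31.3 in control, and only the control value met the detection rule.

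Below 1.5-fold, the next lowest were miR-3096b-3p (831 in hypoxia, 1201 in control, -0.53), miR-712-5p (46.9 in hypoxia, 67.0 in control, -0.51) and miR-690 (200 in hypoxia, 269 in control, -0.43). miR-712-5p, which in mouse is cut from the precursor of ribosomal RNA, was lower on all 3 arrays at 1% oxygen than on any at 20%: 46.9 in hypoxia, 58.0 with the triple stimuli and 36.1 with rapamycin added, against 62.1 in high glucose, 62.0 in palmitate and 67.0 in control. It was listed here with miR-714 and miR-5105, and with miR-709, whose probes the files place on chromosome 8 and whose origin in that precursor is not established here. The list was drawn up with these data known and carries no evidence of its own. Without miR-709, a choice made after seeing the data, 1 of 3 was called lower (miR-714), against 1.85% of all miRNAs, and the median was -0.51 against -0.11. With miR-709, which was called in 7 of 17 processing settings, 2 of 4 were called and the median was -0.57. The remaining lowest differences were -0.37 for miR-3473b, -0.36 for miR-574-5p, -0.35 for miR-1949 and -0.34 for miR-324-5p.

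**Figure D3:**
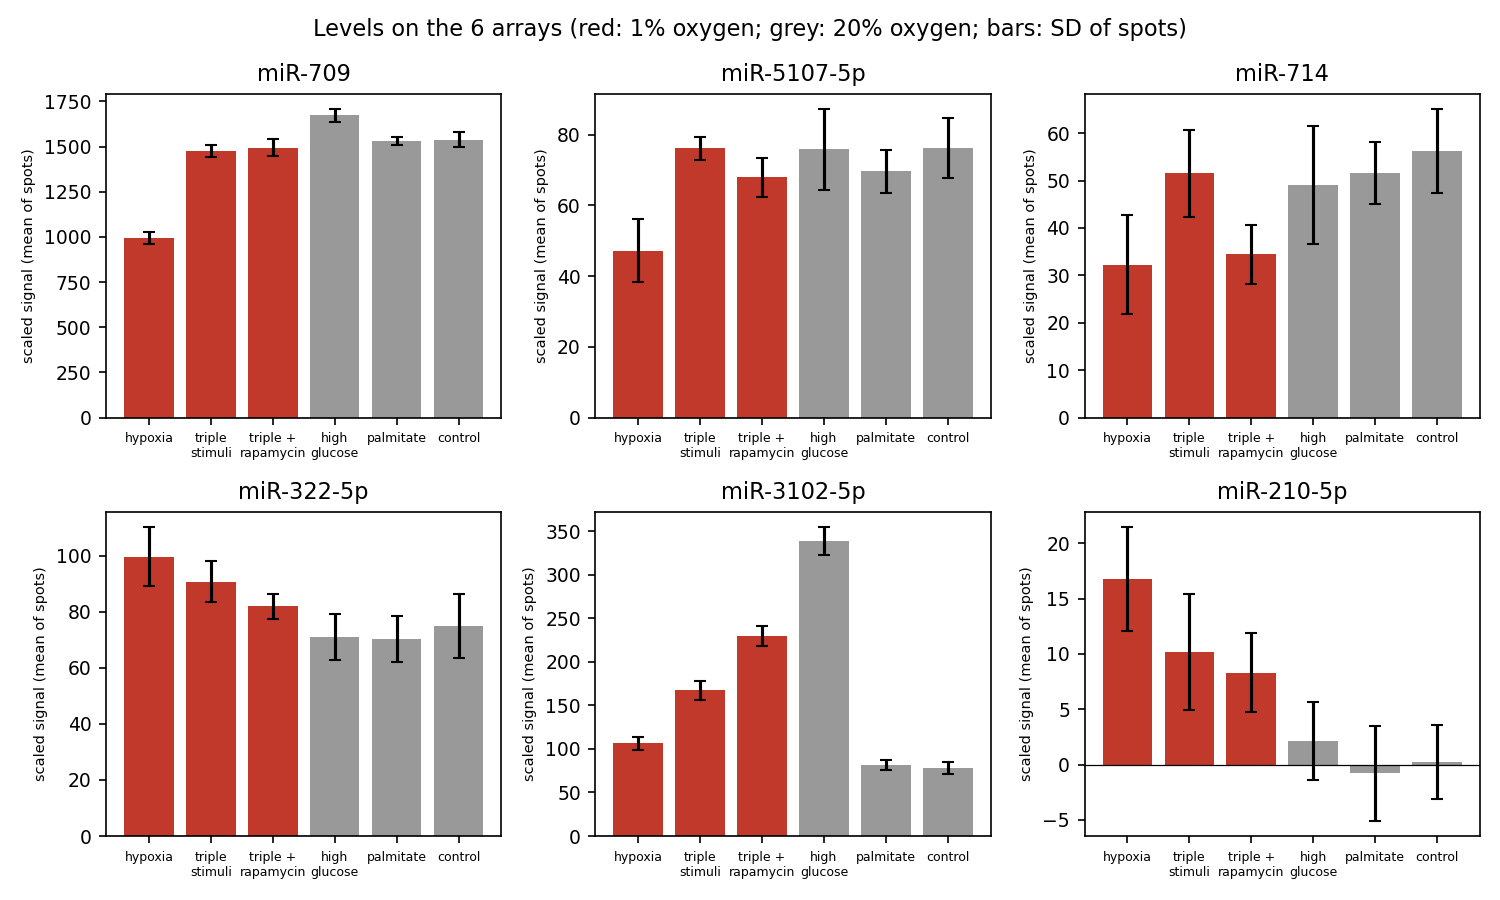
Mean scaled signal of the brightest probe of 6 miRNAs on the 6 arrays, 1% oxygen in red and 20% oxygen in grey, with bars for the SD of spots within the array. miR-709 (993 in hypoxia, 1538 in control) and miR-5107-5p were lowest on the hypoxia array, whereas miR-322-5p and miR-210-5p were higher on all 3 arrays at 1% oxygen.

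Toward the upper end none reached 1.5-fold by its brightest probe. miR-322-5p, the rodent counterpart of human miR-424, which in human endothelial cells represses the cullin that helps degrade hypoxia-inducible factor, came second. Its signal was 99.7 in hypoxia, 90.7 with the triple stimuli and 81.9 with rapamycin added, against 71.1 in high glucose, 70.3 in palmitate and 74.9 in control. The 3 arrays at 1% oxygen lay above the 3 at 20% oxygen. The log2 difference of miR-322-5p was 0.41 (spot SE 0.06). Its other probe averaged 79.4 in hypoxia and 52.6 in control, 1.51-fold, with the lowest hypoxia spot at 66.6 and the highest control spot at 60.8.

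miR-350-3p and miR-224-5p behaved alike. miR-350-3p was at 149 in hypoxia, 150 with the triple stimuli and 136 with rapamycin added, against 112 in high glucose, 106 in palmitate and 119 in control (hypoxia minus control 0.32, spot SE 0.03). miR-224-5p was at 101 in hypoxia, 95.9 with the triple stimuli and 93.4 with rapamycin added, against 78.1 in high glucose, 87.7 in palmitate and 82.9 in control (0.29, spot SE 0.05). Both stood higher on every array at 1% oxygen than on any at 20%, by less than 1.5-fold.

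The first place went to miR-3102-5p, whose levels did not follow oxygen. It was at 106 in hypoxia, 167 with the triple stimuli and 230 with rapamycin added, against 338 in high glucose, 81.8 in palmitate and 77.9 in control. The highest array was a 20% oxygen one, so the difference of 0.45 (spot SE 0.04) is small beside the range over the 20% oxygen arrays. Its other probe averaged 82.9 in hypoxia and 46.7 in control, 1.77-fold, so the probes of miR-3102-5p disagree about the 1.5-fold limit. miR-5126 (782 in hypoxia, 616 in control, 0.34) and miR-2861 (153 in hypoxia, 123 in control, 0.31) had the same order over the arrays, with 3566 and 633 in high glucose. For the high glucose and palmitate arrays the deposited table and the scanner files carry each other's labels, which leaves hypoxia and control untouched.

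The other members of the upper 10 were miR-301a-3p (34.9 in hypoxia, 27.5 in control, 0.34), miR-29c-3p (136 in hypoxia, 110 in control, 0.31), miR-5100 (1800 in hypoxia, 1471 in control, 0.29) and miR-96-5p (109 in hypoxia, 93.7 in control, 0.22). The brightest miRNAs of the hypoxia array had differences from -0.26 (miR-3963) to -0.03 (let-7f-5p), where the median over all miRNAs was -0.11. miR-6366 was at 33788 in hypoxia and 38771 in control, miR-3963 at 22344 in hypoxia and 26834 in control, and let-7f-5p at 3393 in hypoxia and 3464 in control. miR-6243 (6957 in hypoxia, 7515 in control) and miR-5109 (6873 in hypoxia, 7945 in control) completed the 5, which together held 59.2% of the summed signal in hypoxia and 61.1% in control.

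Detected on 1 of the arrays only were 12 miRNAs, 10 in hypoxia and 2 in control, and 1073 were detected on neither. Among the 12, miR-210-3p alone had a bound of 1.5-fold or more. Where the undetected control signal exceeded the control limit of 22.7, the value is a ratio of measured signals and not a minimum. That holds for miR-210-3p, miR-135a-1-3p, miR-140-5p and the last 5 below. The next highest bounds for hypoxia were 1.35-fold for miR-135a-1-3p, 1.23-fold for miR-28a-5p, 1.21-fold for miR-140-5p and 1.19-fold for miR-5117-5p. In control alone were miR-744-5p, higher there by at least 1.27-fold, and let-7b-3p, by at least 1.03-fold. The remaining 5, detected in hypoxia alone, had bounds of 1.03-fold or less. Among them miR-1982-5p (19.7 in hypoxia, 25.6 in control) and miR-500-3p (23.6 in hypoxia, 24.4 in control) had the lower signal in hypoxia.

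The list of miRNAs described as responding to low oxygen or to hypoxia-inducible factor, mostly in other cells and many in human cancer lines, had 21 members. Of these, 13 were detected on both arrays, miR-210-3p on the hypoxia array only, and 7 on neither: miR-210-5p, miR-181a-5p, miR-199a-5p, miR-214-3p, miR-503-5p, miR-429-3p and miR-335-5p. None of the 13 was called, against 1.85% of all miRNAs, a share that would give almost no call among so few. A call needed detection on both arrays, so miR-210-3p could not be called and is not in the median. The median of the 13 was -0.10, close to the median of -0.11 over all miRNAs, and 4 of 13 lay above 0. That split followed the scaling too: 10 of 13 lay above 0 without scaling, 10 when scaled to the spike-in probes, 9 with the software's summed signal and 7 with centring.

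Above 0, beside miR-322-5p, were miR-27a-3p (303 in hypoxia, 276 in control, 0.14), miR-21a-5p and miR-26b-5p (161 in hypoxia, 147 in control, 0.13). miR-21a-5p, which is raised in injured and fibrotic kidney, was at 2998 in hypoxia, 3306 with the triple stimuli and 2914 with rapamycin added, against 3251 in high glucose, 2588 in palmitate and 2728 in control. Its difference of 0.14 (spot SE 0.03) is smaller than its range over the 20% oxygen arrays. At the low end were miR-155-5p (161 in hypoxia, 189 in control, -0.23), miR-20b-5p (168 in hypoxia, 196 in control, -0.22) and miR-181b-5p (35.2 in hypoxia, 40.7 in control, -0.21). miR-155-5p and miR-20b-5p are described as repressors of the alpha subunit of hypoxia-inducible factor.

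The rest of the list lay between -0.12 and -0.03. miR-103-3p was at 376 in hypoxia and 410 in control (-0.12), and its near copy miR-107-3p at 271 in hypoxia and 289 in control (-0.10). miR-23a-3p (1188 in hypoxia, 1213 in control, -0.03), miR-23b-3p (173 in hypoxia, 182 in control, -0.07), miR-24-3p (410 in hypoxia, 446 in control, -0.12) and miR-26a-5p (180 in hypoxia, 194 in control, -0.11) completed the list. Probes of near-identical miRNAs can cross-hybridise, which these data cannot separate.

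**Figure D4:**
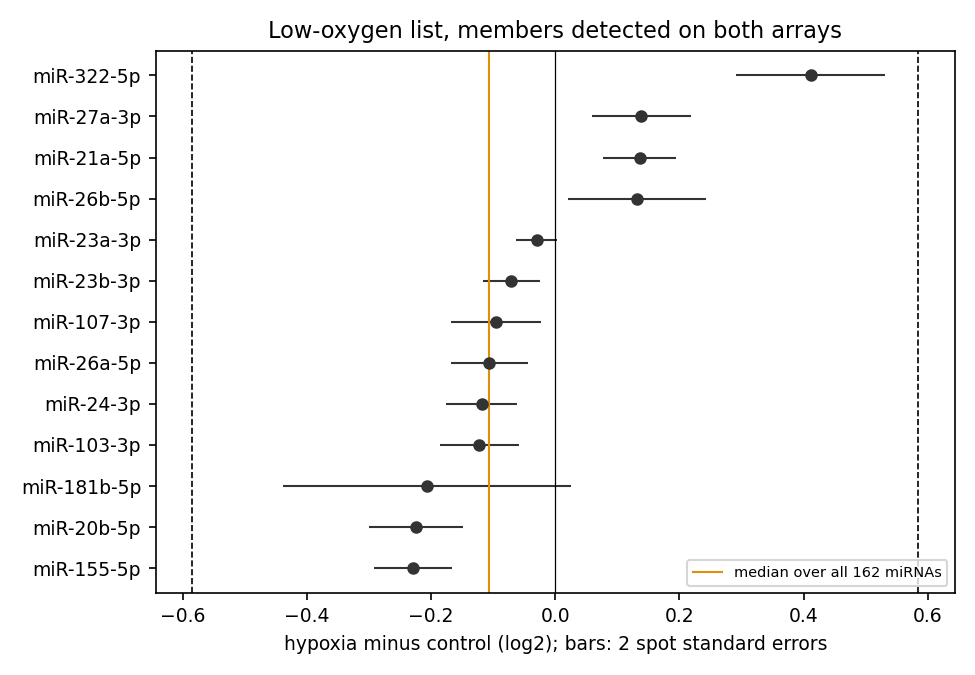
Hypoxia minus control (log2) of the 13 members of the low-oxygen list detected on both arrays, with bars of 2 spot SE, the median of all 162 miRNAs (orange) and the 1.5-fold limits (dashed). miR-155-5p is lowest at -0.23 and miR-322-5p highest at 0.41, and none reaches a limit.

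Of 14 miRNAs described as repressors of oxygen-sensing transcripts, 10 were detected on both arrays. None of the 10 was called, against 1.85% of all miRNAs, a share that would give almost no call among so few. Their median was -0.13, with miR-155-5p lowest and miR-322-5p highest, and 2 lay above 0. Over all 162 miRNAs the median was -0.11 and 40 lay above 0, a split that followed the scaling. miR-130a-3p was at 260 in hypoxia and 291 in control (-0.16), miR-20a-5p at 353 in hypoxia and 409 in control (-0.21), and miR-31-5p at 814 in hypoxia and 868 in control (-0.09).

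Lists for growth control and for the kidney gave no call either, against 1.85% of all miRNAs. That share would give almost no call on lists this short, so the absence tells little about them. The median over all miRNAs was -0.11, and its sign followed the scaling. The 9 let-7 miRNAs, repressors of growth genes, had a median of -0.11, with let-7b-5p lowest at -0.22 and miR-98-5p highest at 0.06. The miR-17/92 cluster and its paralogs, which MYC activates, had 11 of 12 detected, with a median of -0.08, from -0.27 for miR-92a-3p to 0.19 for miR-19a-3p. The miR-30 family, abundant in kidney epithelium, had a median of -0.14 over 5 members, with miR-30e-5p lowest at -0.25 and miR-30b-5p highest at 0.03. miR-10b-5p (0.03) and miR-10a-5p (0.14) were the 2 of 6 other tubule miRNAs detected. For kidney injury and fibrosis, 4 of 13 were detected, from -0.11 for miR-93-5p to 0.14 for miR-21a-5p.

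Smaller lists were also without a call, against 1.85% of all miRNAs, which would give almost none on so few members. p53 targets had 2 of 9 detected (miR-107-3p at -0.10 and miR-34a-5p at -0.0019), and repressors of mTOR pathway transcripts 5 of 9, from -0.23 for miR-99b-5p to 0.19 for miR-7a-5p. Lipid and glucose metabolism had 5 of 11, from miR-103-3p to miR-378a-3p (-0.01). Inflammation had 3 of 7, from miR-155-5p to miR-125b-5p (-0.02). Of the 13 markers of other cell types, miR-206-3p was detected, at -0.08.

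miRNAs that share a seed can repress the same transcripts. No member of a seed family passed 1.5-fold, where 1.85% of all miRNAs were called. Families were formed only from the 133 miRNAs with a matched RefSeq sequence. The 3 called miRNAs had none, so no call could fall in a family and its absence tells nothing. In the family of miR-15 and miR-16, which repress cyclins and BCL2, miR-322-5p at 0.41 stood off from miR-15a-5p (-0.04), miR-15b-5p (0.00) and miR-16-5p (0.05). miR-15b-5p was at 818 in hypoxia and 817 in control. In the miR-29 family, repressors of collagen transcripts, miR-29c-3p was at 0.31, miR-29a-3p at -0.01 and miR-29b-3p at -0.05. The signal of miR-29c-3p was 136 in hypoxia and 144 in high glucose, and its difference is smaller than its range over the 20% oxygen arrays. The pair printed above differed in sign under the reported scaling, with 0.34 for miR-301a-3p and -0.16 for miR-130a-3p. Over the processing settings miR-301a-3p, a dim miRNA, ran from -0.04 to 0.53. With no scaling the median over all miRNAs moved up by 0.18, more than the size of the miR-130a-3p difference. The seed family of miR-17 ran from -0.22 for miR-20b-5p to 0.03 for miR-106b-5p. The 3 miR-30 miRNAs with a matched RefSeq sequence, seed GUAAACA, lay between -0.25 (miR-30e-5p) and -0.14 (miR-30c-5p). No sequence was matched for miR-30b-5p (0.03) and miR-30d-5p (-0.14), so the family count leaves them out.

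Genomic clusters, hairpins within 10 kb on one strand of GRCm38.p6, had ranges within 0.5 on the log2 scale. The miR-17 to miR-92a cluster on chromosome 14 (115043671 to 115044506) had 7 detected arms with a median of -0.08. The miR-106b to miR-25 cluster on chromosome 5 (138165321 to 138165818) ran from -0.33 for miR-106b-3p to 0.03 for miR-106b-5p. The miR-183 to miR-182 cluster on chromosome 6 (30165918 to 30169737) ran from -0.13 for miR-182-5p to 0.22 for miR-96-5p, and the miR-23a to miR-24 cluster on chromosome 8 (84208518 to 84208921) from -0.12 to 0.14. For 9 hairpins both arms were detected, and 7 of these had arms of the same sign. Of all 162 differences 122 lay below 0, a split that followed the scaling. Like signs are therefore common among unrelated miRNAs too, and this count tells nothing particular about arms. The gap between arms had a median of 0.15 and reached 0.36 in miR-106b.

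**Figure D5:**
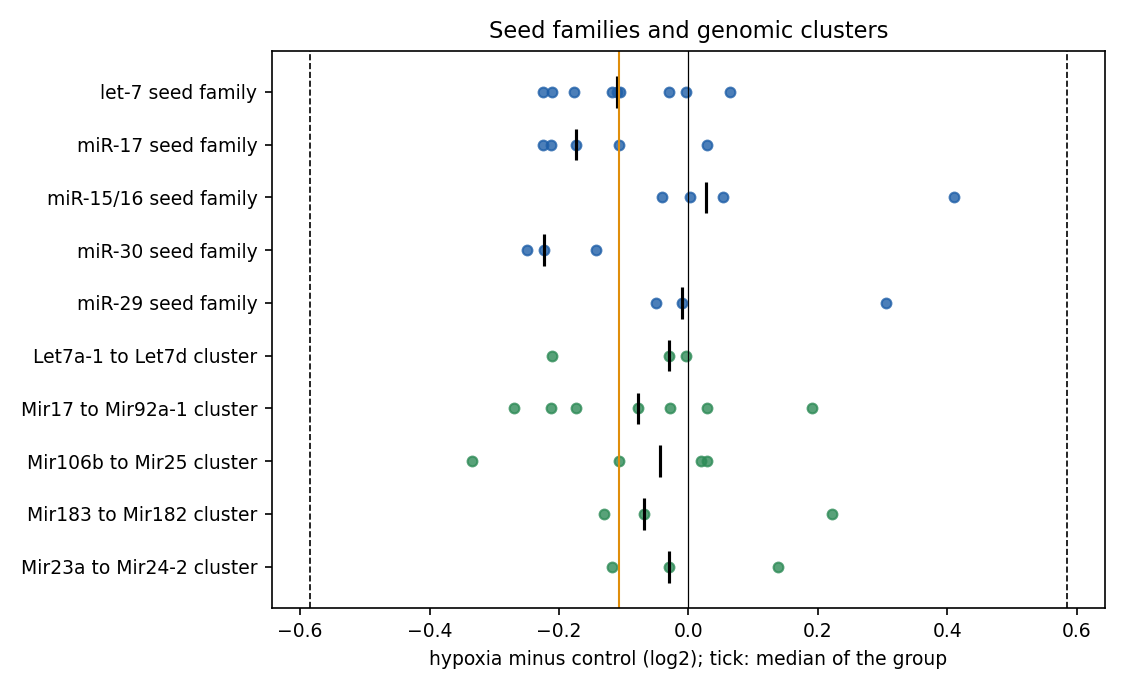
Hypoxia minus control (log2) of miRNAs detected on both arrays in seed families of 3 or more (blue) and in 5 genomic clusters (green), with a black tick at each median, an orange line at the median of all miRNAs and dashed lines at 1.5-fold. No member passes a dashed line, but the 3 called miRNAs had no matched RefSeq sequence and could not enter. miR-322-5p at 0.41 and miR-29c-3p at 0.31 stand off from their families, though miR-29c-3p was higher still in high glucose at 20% oxygen.

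Set against all 3 arrays at 20% oxygen, the hypoxia array was above them for 19 of the 154 miRNAs detected on all 6 arrays (12.3%) and below them for 61 (39.6%). With each array centred these counts were 43 and 35. All 3 arrays at 1% oxygen lay above all 3 at 20% for 4 miRNAs (2.6%): miR-322-5p, miR-350-3p, miR-224-5p and miR-25-3p. They lay below for 13 (8.44%), among them let-7b-5p, let-7c-5p, let-7d-5p, miR-107-3p, miR-221-3p, miR-345-5p, miR-712-5p and miR-709. These counts were not recomputed under other scalings, and a separation of any size counted. miR-25-3p was at 664 in hypoxia and 659 in palmitate, and miR-107-3p at 271 in hypoxia and 272 in high glucose. Treatments other than oxygen are spread unevenly over these arrays, and rapamycin occurs at 1% oxygen only.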

How the data were processed

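Each sample is 1 array of 1 colour (Cy3), labelled from 100 ng total RNA. Per the submitters' processing notes the software was Agilent Feature Extraction 10.7.3.1. Per the file headers the deposited intensity values are linear spot signals after background subtraction, without normalisation across arrays. The value table deposited by the authors holds a linear signal per miRNA. It equalled the software's sum divided by 1 factor, within 0.1%, for 70.0% of miRNAs in hypoxia and 68.7% in control; the choice of that factor is not stated, and the column medians, 0.00440 in hypoxia and 0.00475 in control, are the column floors. The table was used as an alternative.

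Groups came from sample titles. Spots flagged as outliers were left out (4.42% in hypoxia, 4.26% in control), and the rest averaged per probe (median 18 spots). The 75th percentile before scaling was 335 in hypoxia and 295 in control. After scaling, values were floored at the array's lowest detected probe signal and moved to log2. The brightest of 1 to 4 probes over the 6 arrays stood for a miRNA (3105 probes in all). For a miRNA detected on 1 array, the bound divides its signal by the signal or the limit on the other array, whichever is higher. The number of arrays limits the precision.

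The members and lists were chosen with earlier results of these data known. Named are the low-oxygen list, all calls, miRNAs detected on 1 array with a bound of 1.5-fold (others there were named after their values were seen), the 10 highest and 10 lowest differences, the 5 brightest miRNAs, and the extremes of each list and seed family; second probes, miR-210-5p, clusters and arms were added after their values were seen. Alternatives covered scaling, background, probe summary, spots, detection and the value table. Software was Python 3.11.15, pandas 2.3.3, numpy 2.4.6, R 4.3.3 and limma 3.58.1.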

Additional observations from a re-analysis of the deposited data

How the results depend on the processing

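Each result was recomputed under 15 alternatives and 1 more, added after seeing the data: the centring of each array. The value for miR-210-3p, 10.5-fold as reported, was between 10.0-fold and 12.1-fold under most of them. It was 3.31 with normexp, which adds an offset of 50 to every signal, 8.76 with detection in at least 0.9 of spots, and 9.01 from odd-numbered spots, where control met the detection rule.

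The count of called miRNAs, 3 as reported, was 1 with quantile normalisation (miR-714), 0 with normexp, 1 with the stricter detection (miR-5107-5p), 6 with the software's detection (miR-210-3p higher and 5 lower) and 5 from the deposited table (2 higher, 3 lower), whose values carry no spot error. Including the reported setting, miR-714 was called in 12 of 17 settings, miR-5107-5p in 11 and miR-709 in 7. The software's summed signal called miR-3102-5p and miR-322-5p higher and none lower. The count of miRNAs detected on 1 array, 12 as reported, was 7 with the stricter detection.

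The median over all miRNAs, -0.11 as reported, was 0.0758 with no scaling, 0.0538 with spike-in scaling, 0.0171 with the summed signal, -0.0057 with stricter detection and -0.0071 with centring. No scaling shifted it by 0.18 and spike-in scaling by 0.16. The median of the low-oxygen list, -0.10 as reported, was 0.0873 with no scaling, 0 with quantile normalisation, 0.0652 with spike-in scaling, 0.0469 with the summed signal, 0.0156 with stricter detection and 0.0044 with centring. A direction for small differences therefore depends on the processing. Of 58 named miRNAs, 34 kept their sign in all settings and 24 did not. Among the 24, miR-6366 and miR-3963 reached 0 but never lay above it. The cause was not tested. No paired analysis was possible because each group has 1 array.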

Other observations

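With the arrays centred, hypoxia minus control was -0.53 for miR-709 and -0.59 for miR-5107-5p, against 0.51 for miR-322-5p and 0.55 for miR-3102-5p. miR-709 is then under the 1.5-fold limit.

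By level, the median difference was -0.16 in the dimmest of 4 equal bins of the miRNAs detected on both arrays, then -0.08, -0.10 and -0.11 in the brighter bins. The bins held 40 or 41 miRNAs each.

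For miRNAs with 1 hairpin on the minus strand, the position that the scanner files give for a probe was mirrored within the hairpin, compared with RefSeq, for 496 probes, among them those of miR-210-3p, and otherwise placed for 476. On the plus strand 775 were at the same position and 519 otherwise placed. The positions printed for Mir210 are those of RefSeq.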
